A study of Mus musculus with 6 samples.

Results

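The transcripts of 10 enzymes that carry glucose to lactate (Hk1, Hk2, Gpi1, Pfkl, Aldoa, Gapdh, Pgk1, Eno1, Pkm and Ldha) were followed in mouse microglia with and without a working LACTB enzyme. They were chosen by name and not by a cut on their values, though with earlier results of these data known. All 10 were measured, among 15954 genes in the table. LACTB is a mitochondrial serine hydrolase related to bacterial beta-lactamases, and the study asked what loss of its activity does to microglia in the brain. Polyadenylated RNA was sequenced from 3 wild-type (LACTB WT) mice and from 3 mice homozygous for an enzymatically dead form (LACTB ED), 1 library per mouse, all 3 months old. The ED mice carried the S162I substitution on both Lactb alleles. The allele was built as a conditional knock-in in C57BL/6J embryonic stem cells. The sources used here do not say how the conditional form was converted, which sex the mice had or whether the WT mice were littermates. Cells were taken from enzymatically dissociated brain with magnetic beads against CD11b, a surface protein that microglia share with other myeloid cells. Values are normalized read counts, that is reads per gene divided by a size factor per library, and groups are given as mean ± SD over 3 mice.

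Glycolysis splits glucose in the cytosol into pyruvate and yields a small net gain of ATP without oxygen. Hexokinases trap glucose as glucose 6-phosphate, glucose-6-phosphate isomerase and phosphofructokinase prepare it for cleavage, and aldolase cleaves it. The later steps, from glyceraldehyde-3-phosphate dehydrogenase to pyruvate kinase, recover ATP, and lactate dehydrogenase reduces pyruvate to lactate, which restores NAD+. Microglia and other macrophages are known to raise glycolysis when they are activated by bacterial products, and the transcription factor HIF-1 is known to induce many of these genes.

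Normalized counts summed to 25616871 to 26858913 per library over the listed genes, and the number of reads behind them was not recovered with certainty. The microglia marker Csf1r was high in all 6 libraries, at 273414 to 326166. Of 9 microglia markers, 8 had a lower mean log2 value in ED (median log2 fold change -0.06), all with overlap between genotypes, and 6 were highest in WT mouse 2. The Lactb transcript, whose count does not read the mutated base, averaged 1475 ± 85.0 (SD, n = 3) in WT mice and 1491 ± 32.8 in ED mice. Markers of other cell types were present at lower levels and differed between libraries. The summed level of 10 neuron markers lay at 3678 to 3911 in the WT libraries and at 2576 to 3344 in the ED libraries. Of these markers, 9 of 10 had a lower mean log2 value in ED, 6 had an unadjusted p under 0.05 (1.22% of all genes did in this direction), 7 did not overlap between genotypes (3.42% of all genes did not in this direction) and none was at 0. WT mouse 2 stood apart with a sum of 6362 over 8 endothelial markers, against 3076 to 3908 in the other 5 libraries, and of 381 over the 2 measured red cell markers, against 41.1 to 70.3. The monocyte and neutrophil sum was 3471 in ED mouse 3 and 2378 in WT mouse 2, against 670 to 1179 in the others. Astrocyte, oligodendrocyte and border macrophage sums lay at 7011 to 8465, 11919 to 15981 and 10320 to 13953, with overlap between genotypes. Of 8 astrocyte markers, 3 had a lower and 5 a higher mean log2 value in ED. Among these 8, 1 had an unadjusted p under 0.05 with ED lower (1.22% of all genes) and 1 had no overlap with ED higher (2.32%). Lower and higher markers numbered 4 and 5 for oligodendrocytes and 1 and 5 for border macrophages, all with overlap.

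No glycolysis enzyme passed the test between genotypes (limma, Benjamini-Hochberg adjustment over all 15954 genes, threshold 0.05, adjusted p = 1.00 for each of the 10). The background was the same, since 0 genes passed in the whole table, which is 0% of genes, and 290 genes (1.82%) had an unadjusted p under 0.05, lower in ED for 1.22% of all genes and higher for 0.602%. None of the 10 enzymes was among them. All 10 enzymes had a lower mean log2 value in ED than in WT, where 51.4% of all genes did, and 8 of the 9 microglia markers did too. Their median log2 fold change was -0.08, against -0.0033 over all genes. All 10 also lay below 0 after rescaling the libraries by trimmed means, where 52.5% of genes did, and by upper quartiles, where 49.3% did. In whole-cell RNA of this kind, fewer cells of a type and less RNA per cell cannot be told apart.

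**Figure D1:**
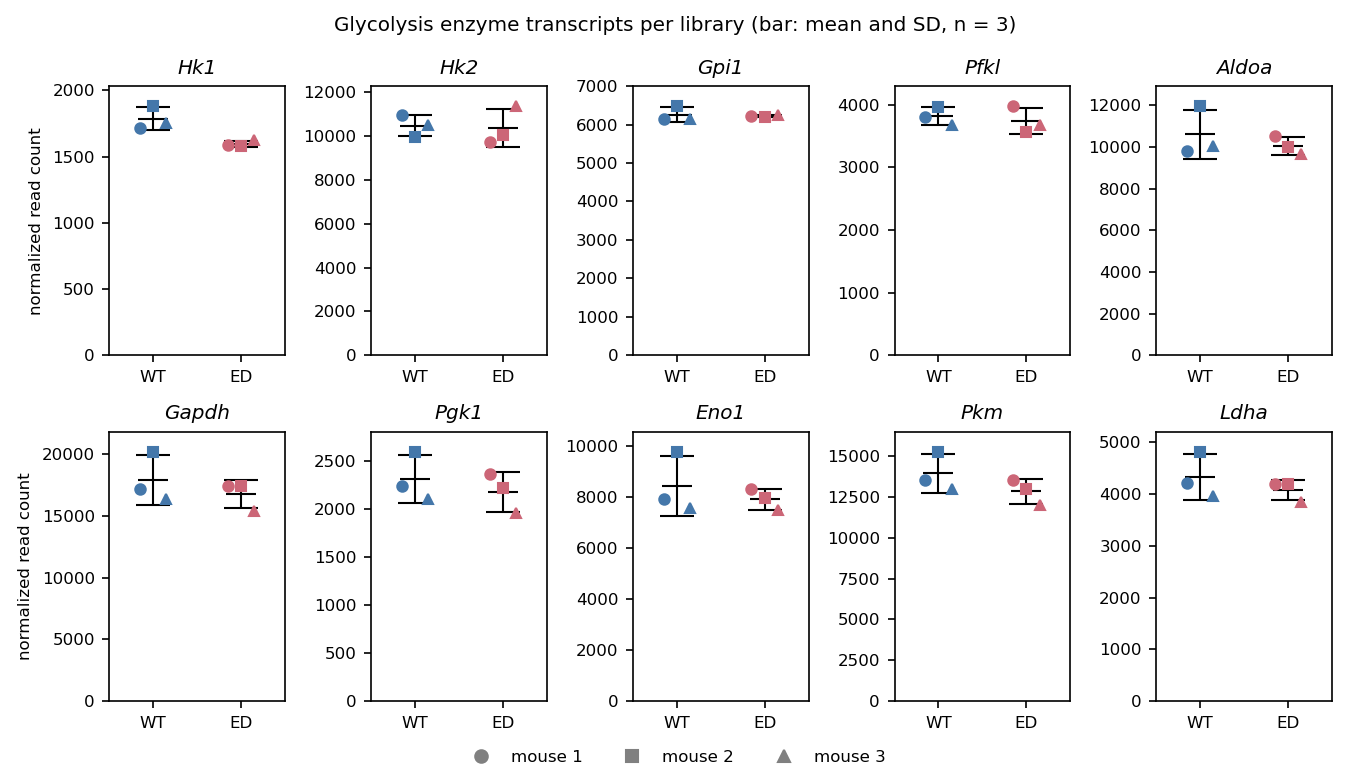
Normalized read counts of the 10 glycolysis enzymes in each library (y axis from 0, linear), with WT in blue, ED in red, symbols for the mouse number and black marks for the mean and SD of 3 mice. The Hk1 points of ED (1579 to 1624) lie below those of WT (1717 to 1883), and the points of both genotypes overlap in the other 9 panels.

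The promoter sequences of 5 enzymes are shown because the genes of the pathway share a known regulator, HIF-1, which binds a core of ACGTG or GCGTG. RefSeq windows on GRCm38.p6 were found for 10 of 10 enzymes, 17 windows in all, because some genes have several start sites. Each sequence below is the 250 bases before an annotated start, 5′ to 3′ on the strand of the gene, and capitals mark every ACGTG or GCGTG on either strand, including overlaps. The 9 windows that overlap an annotated exon are not shown, and 5 of the other 8 are. Hk1 and Hk2 are given as the hexokinase pair, Gapdh and Pgk1 as consecutive enzymes after the cleavage, and Ldha as the last step.
Hk1, chr10:62379909-62380158, minus strand: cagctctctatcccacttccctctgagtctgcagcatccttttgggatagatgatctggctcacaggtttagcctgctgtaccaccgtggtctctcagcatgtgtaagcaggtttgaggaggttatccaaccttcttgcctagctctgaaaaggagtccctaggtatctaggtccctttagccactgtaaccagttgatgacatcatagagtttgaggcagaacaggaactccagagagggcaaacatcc
Hk2, chr6:82774455-82774704, minus strand: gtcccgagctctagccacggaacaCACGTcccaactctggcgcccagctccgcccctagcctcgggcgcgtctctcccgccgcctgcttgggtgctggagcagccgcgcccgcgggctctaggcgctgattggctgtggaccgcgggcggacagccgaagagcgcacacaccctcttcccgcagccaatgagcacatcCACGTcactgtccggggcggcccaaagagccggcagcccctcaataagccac
Gapdh, chr6:125165774-125166023, minus strand: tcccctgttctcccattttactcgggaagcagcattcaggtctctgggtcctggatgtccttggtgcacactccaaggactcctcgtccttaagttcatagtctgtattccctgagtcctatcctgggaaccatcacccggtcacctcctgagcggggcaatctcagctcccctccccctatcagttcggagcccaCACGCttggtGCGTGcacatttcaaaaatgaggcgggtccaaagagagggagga
Pgk1, chrX:106186850-106187099, plus strand: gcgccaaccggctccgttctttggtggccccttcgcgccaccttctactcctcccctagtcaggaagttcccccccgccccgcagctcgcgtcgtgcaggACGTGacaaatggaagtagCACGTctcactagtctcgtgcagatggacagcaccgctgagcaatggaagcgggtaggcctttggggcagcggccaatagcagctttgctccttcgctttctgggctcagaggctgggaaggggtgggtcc
Ldha, chr7:46845554-46845803, plus strand: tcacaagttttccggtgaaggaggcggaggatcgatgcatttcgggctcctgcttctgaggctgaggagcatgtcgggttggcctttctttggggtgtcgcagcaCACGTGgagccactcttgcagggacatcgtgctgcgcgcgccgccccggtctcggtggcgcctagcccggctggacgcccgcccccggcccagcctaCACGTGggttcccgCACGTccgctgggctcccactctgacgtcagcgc

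The Ldha window held 5 matches to ACGTG in 3 stretches, among them 2 copies of the palindrome CACGTG, which is counted once on each strand. Windows with 4 or more matches to either core made up 2.58% of all 32851 windows of that length, and the Ldha window was the only one of the 17. The Hk2 and Pgk1 windows held 2 ACGTG each and the Gapdh window 2 GCGTG, while the Hk1 window before its outermost start held none. A second Hk1 window, inside the gene, held 3 GCGTG, and a second Ldha window held 1 GCGTG. Which start these microglia used was not tested. At least 1 match to either core stood in 13 of the 17 windows, against 38.6% of all windows. By gene it was 9 of the 10, with Gpi1 the gene without one, and the share over all genes was not computed. The GC content of the 17 windows ran from 49.6% to 71.2%, and that of all windows was not set beside it. Windows of Aldoa and of Eno1 overlap each other and share matches, so these counts are not of separate sites. The GC box GGGCGG stood in 9 of the 17 windows, against 32.7% of all windows. A match is a stretch of letters and not evidence of binding.

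Hexokinases phosphorylate glucose on entry into the pathway. Hk1 (ENSMUSG00000037012, chromosome 10 of GRCm38, minus strand, from 62268855 to 62379908) encodes the form known as the main hexokinase of neurons and red cells, which sits on mitochondria. Its normalized counts were 1717, 1883 and 1757 in WT mice 1 to 3 and 1589, 1579 and 1624 in ED mice 1 to 3. Every ED library was therefore below every WT library, a pattern that 3.42% of all genes showed in this direction and 2.32% in the other (5.74% in either). Hk1 was 1 of 10 enzymes without overlap. The log2 fold change was -0.16 (SE 0.075, 95% interval -0.33 to 0.01), or -10.5% with an interval of -20.4% to 0.674%. It missed the threshold (limma adjusted p = 1.00, unadjusted p = 0.062), and the exact two-sided permutation test gave p = 0.1, the smallest that 3 mice against 3 allow. The difference was -0.12 without WT mouse 2 and lay between -0.19 and -0.12 over the fits that each left out 1 library. The neuron marker sum was also without overlap and lower in ED (2576 to 3344 against 3678 to 3911), and its part in the Hk1 values was not tested. The antisense gene Hk1os overlaps Hk1, and the sources used here do not say if the counting used strand. The same limit holds for Gm17034 in Hk2, Fam57b beside Aldoa and Iffo1 beside Gapdh.

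Hk2 (ENSMUSG00000000628, minus strand of chromosome 6, from 82725025 to 82774454) encodes the inducible hexokinase of muscle, fat and activated immune cells, and was the more abundant of the pair. Normalized counts of Hk2 were 10955, 9971 and 10490 in WT and 9735, 10059 and 11373 in ED, so ED libraries held both the lowest and the highest value. Its log2 fold change was -0.01 (SE 0.090, 95% interval -0.22 to 0.19, exact permutation p = 0.9). Its sign turned when WT mouse 1, ED mouse 1 or ED mouse 2 was left out.

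The steps that follow prepare the sugar for cleavage. Gpi1 (ENSMUSG00000036427, minus strand of chromosome 7, from 34201330 to 34230336) encodes glucose-6-phosphate isomerase, which makes fructose 6-phosphate. For Gpi1 the normalized counts were 6140, 6485 and 6144 in WT and 6221, 6192 and 6257 in ED. These were the most even values of the 10 enzymes, with a within-genotype SD of 0.032 on the log2 scale and a log2 fold change of -0.01 (SE 0.072, 95% interval -0.17 to 0.15, exact permutation p = 1.0). The predicted gene Gm26762 lies within Gpi1. Pfkl (ENSMUSG00000020277, minus strand of chromosome 10, from 77986947 to 78010083) encodes the liver-type phosphofructokinase, which catalyses the committed step. The Pfkl transcript had normalized counts of 3809, 3958 and 3679 in WT and 3978, 3567 and 3666 in ED, with the highest and the lowest value both in ED. The log2 difference between genotypes was -0.03 (SE 0.077, 95% interval -0.20 to 0.14, exact permutation p = 0.7).

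Aldoa (ENSMUSG00000030695, minus strand of chromosome 7, from 126795234 to 126800751) encodes aldolase A, which cleaves fructose 1,6-bisphosphate. Across the mice, Aldoa had normalized counts of 9828, 11973 and 10040 in WT and 10541, 9982 and 9663 in ED. WT mouse 2 was the highest library, and the other WT mice lay within the ED range. This gave a log2 fold change of -0.07 (SE 0.097, 95% interval -0.29 to 0.15, exact permutation p = 0.6) and was 0.02 without WT mouse 2.

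The enzymes after the cleavage had their highest value in the same library. Gapdh (ENSMUSG00000057666, minus strand of chromosome 6, from 125161715 to 125166467) encodes glyceraldehyde-3-phosphate dehydrogenase, often used as a reference transcript, and had the highest counts of the 10. Gapdh had normalized counts of 17156, 20160 and 16338 in WT and 17364, 17377 and 15406 in ED. The log2 fold change was -0.09 (SE 0.107, 95% interval -0.33 to 0.15, exact permutation p = 0.6), which spans a change of -20.6% to 10.6%. Without WT mouse 2 it was -0.0045. Pgk1 (ENSMUSG00000062070, plus strand of chromosome X, from 106187100 to 106203699) encodes phosphoglycerate kinase, the first ATP-forming step. The 6 libraries held normalized Pgk1 counts of 2244, 2599 and 2110 in WT and 2363, 2217 and 1961 in ED, with WT mouse 2 highest and ED mouse 3 lowest. Its log2 fold change was -0.09 (SE 0.104, 95% interval -0.32 to 0.15, exact permutation p = 0.5) and was -0.0016 without WT mouse 2.

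Eno1 (ENSMUSG00000063524, plus strand of chromosome 4, from 150236721 to 150248879) encodes alpha-enolase, which forms phosphoenolpyruvate. For Eno1 the normalized counts were 7943, 9781 and 7583 in WT and 8311, 7988 and 7489 in ED. It was the most variable of the 10, with a within-genotype SD of 0.148 on the log2 scale and a value in WT mouse 2 that was 1.24 times the mean of the other 5 libraries. The estimated log2 fold change was -0.08 (SE 0.107, 95% interval -0.32 to 0.16, exact permutation p = 0.7) and turned to 0.03 without that library. Eno1b, an intronless near-copy of Eno1 that was named after its values were seen, averaged 21.7 ± 7.62 (SD, n = 3) in WT mice and 14.4 ± 6.001 in ED mice. Reads that match both could have been split or dropped, and the same holds for the processed pseudogenes of Gapdh, Aldoa, Pgk1, Pkm and Ldha.

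Pkm (ENSMUSG00000032294, plus strand of chromosome 9, from 59656368 to 59679375) encodes the muscle pyruvate kinase, spliced into the isoforms PKM1 and PKM2, which a gene count does not separate. Normalized counts of Pkm were 13533, 15245 and 12990 in WT and 13506, 13002 and 11983 in ED. The WT and ED ranges overlapped, and the log2 fold change of -0.12 (SE 0.095, 95% interval -0.33 to 0.10, exact permutation p = 0.3) was the second most negative after that of Hk1. It kept its sign in each of the 6 fits that left out 1 library, between -0.16 and -0.05. Ldha (ENSMUSG00000063229, plus strand of chromosome 7, from 46841475 to 46855627) encodes the subunit of lactate dehydrogenase that prevails in glycolytic tissue. The Ldha transcript had normalized counts of 4210, 4815 and 3954 in WT and 4194, 4187 and 3846 in ED. The resulting log2 fold change was -0.08 (SE 0.092, 95% interval -0.29 to 0.12, exact permutation p = 0.4) and was -0.0028 without WT mouse 2.

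**Figure D2:**
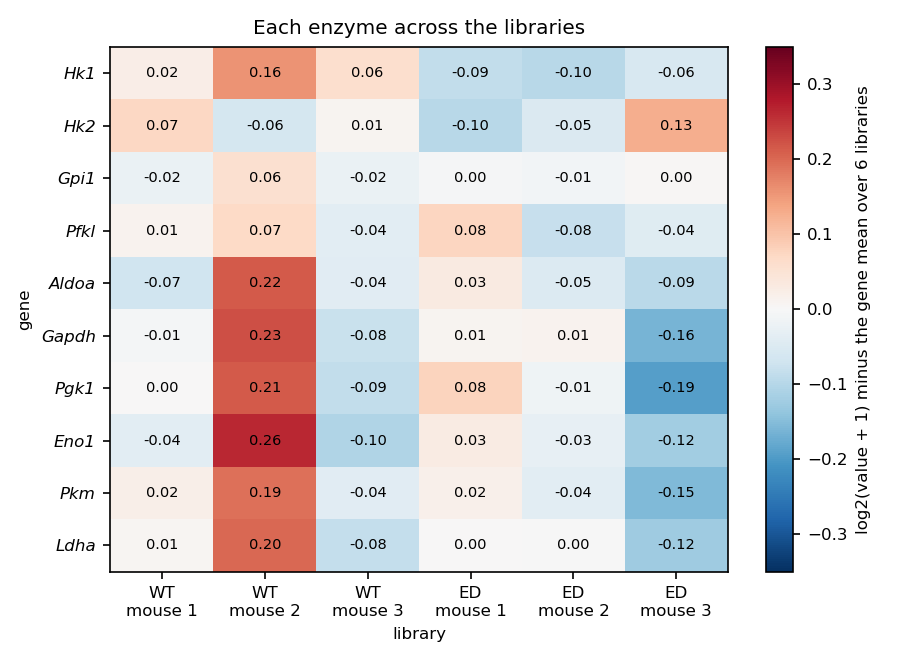
Deviation of each enzyme in each library from the mean of that gene over the 6 libraries, on the log2(value + 1) scale (colour and printed value, red above and blue below the mean). The column of WT mouse 2 is red from Aldoa to Ldha with a median over the 10 genes of 0.20, and the column of ED mouse 3 is blue for 8 of the 10 genes with a median of -0.11.

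Most of the enzymes differed between libraries in the same way. WT mouse 2 was the highest library for 8 of the 10 enzymes, all but Hk2 and Pfkl, and the lowest for 0. Over all genes it was the highest library for 26.2% and the lowest for 27.7%. ED mouse 3 was the lowest for 6 of the 10 (Aldoa, Gapdh, Pgk1, Eno1, Pkm and Ldha), where it was the lowest for 20.1% of all genes. The value in WT mouse 2 was 1.17 to 1.24 times the mean of the other 5 libraries for those 6 genes, 1.14 times for Hk1, 1.06 times for Pfkl and 1.05 times for Gpi1. Hk2 was the exception at 0.948 times. The 10 enzymes together made up 0.323% of the normalized total in WT mouse 2 and 0.286% in ED mouse 3, against 0.292% to 0.299% in the other 4 libraries. WT mouse 2 was also the library with the high endothelial and red cell sums (6362 and 381). The sum of the 9 microglia markers was 862219 there, against 737880 to 804488 in the other 5. Genes known to respond to tissue dissociation, such as Fos and Jun, summed to 319691 in WT mouse 2 against 159259 to 264475 in the others, and 9 of 14 were highest in that library. They also had a lower mean log2 value in ED for 12 of 14 (median log2 fold change -0.27), with 0 past the threshold. ED mouse 3 was the library with the highest monocyte and neutrophil sum (3471). The part of these cells and of the dissociation response in the enzyme values was not tested. The median within-genotype SD of the 10 enzymes was 0.110 on the log2 scale, next to 0.114 for the 5084 genes with a mean of at least 1000.

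**Figure D3:**
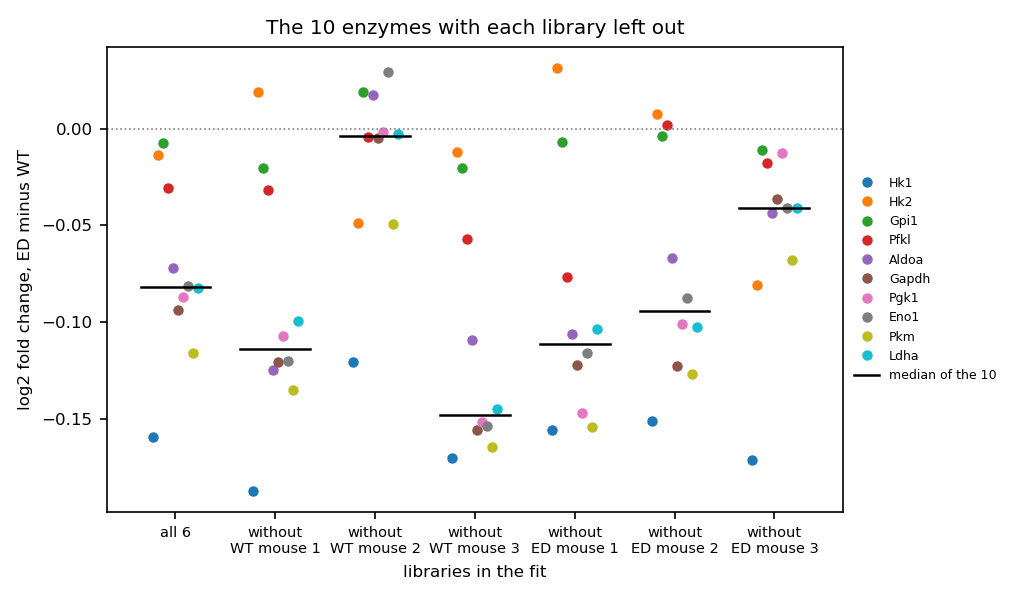
Log2 fold change of each enzyme, ED minus WT (y axis), in the fit of all 6 libraries and in the 6 fits that each left out 1 library (x axis), with 1 coloured point per gene and a black line for the median of the 10. The median moves from -0.08 with all libraries to -0.0034 without WT mouse 2 and to -0.15 without WT mouse 3.

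Among the fits that left out 1 library, the median difference of the 10 enzymes was nearest to 0 without WT mouse 2. Without it, 7 of the 10 had a lower mean log2 value in ED, where 51.7% of all genes did, and their median log2 fold change was -0.0034. Gpi1, Aldoa and Eno1 then had estimates above 0, of 0.02, 0.02 and 0.03. Without ED mouse 3, all 10 remained below 0 with a median of -0.04, where 49.2% of all genes were below 0. Without WT mouse 1 or ED mouse 1, 9 of the 10 lay below 0, where 50.3% and 50.9% of all genes did. Without ED mouse 2, 8 of the 10 did, where 51.4% of all genes did. With libraries weighted by their estimated quality, 8 of the 10 lay below 0, where 50.4% of all genes did. The median of the 10 was then -0.03. WT mouse 2 had the lowest weight of 0.349, and the highest weights were 2.80 for WT mouse 1 and 3.23 for ED mouse 2.

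The levels of the enzymes were set in order as reads per kb of merged exon sequence, averaged over the 6 libraries. Merged exons took in every annotated exon, with 5379 bases for Eno1, 4133 for Gapdh and 3310 for Ldha beside 5969 for Hk2. The order rests on these lengths, and the lengths of the transcripts present could give another order. Gapdh came first at 4186 reads per kb and Aldoa second at 3551, with overlapping ranges, although Gapdh was higher in each of the 6 libraries. Pkm followed at 2675, below Aldoa in every library. Hk2 at 1747, Eno1 at 1521 and Ldha at 1269 came next, and the ranges of neighbours among these overlapped. Pgk1 at 1002 and Gpi1 at 967 reads per kb overlapped as well. Pfkl stood at 566 and Hk1 at 198, each below the range of the gene before it.

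Isozymes were compared within each library, so that the scaling between libraries cancels. The ratio of Hk3, a hexokinase known from myeloid cells, to Hk1 lay at 3.13 to 4.04 in the WT libraries and at 4.05 to 4.32 in the ED libraries, with no overlap. Its log2 difference was 0.22 (exact permutation p = 0.1, adjusted p = 0.90 over 9 ratios), and 0.11 to 0.30 over the leave-outs. Hk3 itself stood at 6442, 5889 and 7097 in WT and 6444, 6706 and 7019 in ED, with overlap. The Hk2 to Hk1 ratio ran from 5.30 to 6.38 in WT libraries and from 6.12 to 7.001 in ED (log2 difference 0.15, exact permutation p = 0.3, adjusted p = 0.90). The other 7 ratios, of which Ldha to Pkm sets different enzymes against each other, overlapped between genotypes, with exact permutation p from 0.3 to 1.0 and log2 differences from -0.07 to 0.14.

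**Figure D4:**
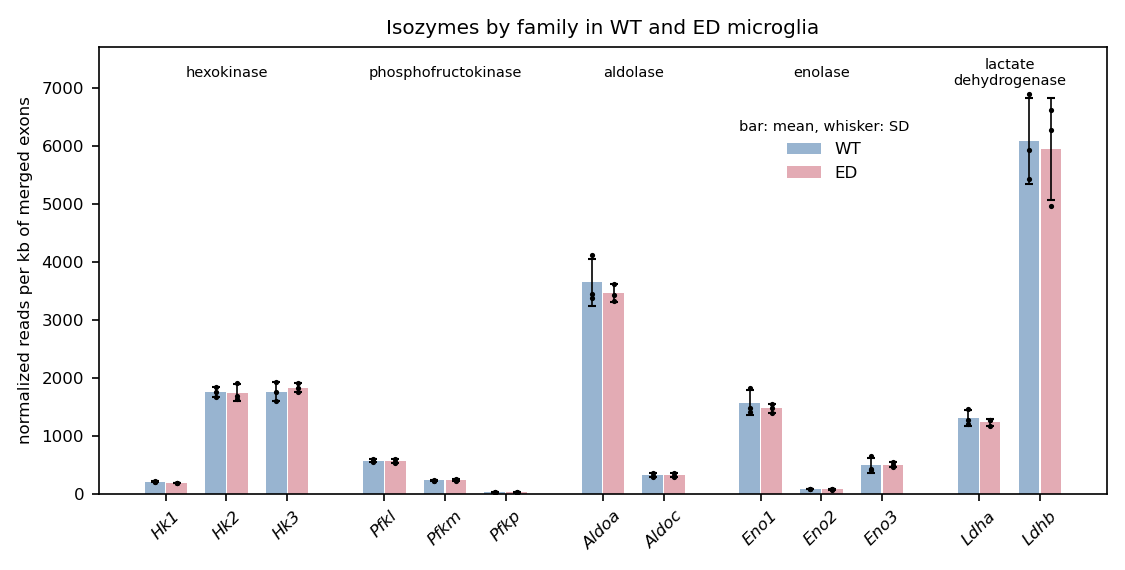
Isozymes of 5 enzyme families in WT (blue) and ED (red), as normalized reads per kb of merged exon sequence (y axis, linear from 0), with bars for the mean, whiskers for the SD of 3 mice and points for the mice. Hk2 and Hk3 stand at nearly equal height (1754 and 1759 reads per kb in WT), Ldhb stands above Ldha (6082 against 1307), and the bars of both genotypes are close in each pair.

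Per kb, 2 hexokinases were about equally abundant, Hk2 with 47.2% ± 1.76 (SD, n = 3) and Hk3 with 47.2% ± 2.04 of the measured hexokinase signal in WT, while Hk1 took 5.64% ± 0.587 in WT and 4.997% ± 0.233 in ED. Pfkl made up 69.4% of the phosphofructokinase signal in WT and 68.6% in ED, with Pfkm, the muscle form, at 27.9% and 28.9%. Aldoa took 91.8% and 91.6% of the aldolase signal against Aldoc, the brain form. Eno1 took 73.1% and 71.9% of the enolase signal, with Eno3, the muscle form, at 22.9% and 24.4% and Eno2, the neuronal form, at 3.97% and 3.75%. The Eno3 to Eno1 ratio of counts was only 0.072 to 0.147 in WT libraries and 0.101 to 0.126 in ED libraries. Merged exons spanned 5379 bases for Eno1 and 1739 for Eno3, so the Eno3 share rests largely on these lengths. Ldhb, the subunit that prevails in heart, held 82.3% of the lactate dehydrogenase signal in WT and 82.7% in ED. The Ldhb to Ldha ratio of counts ran from 2.15 to 2.25 in WT libraries and from 2.02 to 2.48 in ED libraries. Shares per kb compare different genes, so they rest on the annotated exon lengths and on how reads shared with pseudogenes were handled. Merged exons spanned 13401 bases for Pfkp against 6675 for Pfkl, and 3310 for Ldha against 1570 for Ldhb. The lengths of the transcripts present could give other shares.

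Among the other enzymes of the route, 13 of 16 listed genes were measured, of which 8 had an estimate below 0 and 5 above (median log2 fold change -0.02), and 0 passed. Tpi1, triosephosphate isomerase, stood at 3331, 3746 and 3384 in WT and 3367, 3359 and 2981 in ED (log2 fold change -0.11, SE 0.085). Pgam1, phosphoglycerate mutase, stood at 1343, 1362 and 1189 in WT and 1281, 1220 and 1125 in ED (log2 fold change -0.10, SE 0.090). Both had their highest value in WT mouse 2 and their lowest in ED mouse 3, like the enzymes on either side of them in the pathway. Of the 13 genes, 5 were highest in WT mouse 2 and 4 were lowest in ED mouse 3. WT mouse 2 was the lowest library for Hk3, Pfkm, Aldoc, Pgam2, Eno3 and Adpgk. Eno2, the neuronal enolase, had the most negative estimate of this list at -0.15 (SE 0.114, exact permutation p = 0.3), with 397, 389 and 408 in WT and 320, 364 and 399 in ED.

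Of the 8 glucose and lactate transporters, 6 had an estimate below 0 and 2 above, with a median of -0.04, and 0 passed. Slc2a5, typical of microglia and known mainly as a fructose carrier, was the most abundant at 14583, 15682 and 13849 in WT and 14848, 15314 and 12963 in ED. Slc2a1, the glucose carrier that is high in brain endothelium, stood at 2161, 3157 and 2031 in WT and 2346, 2073 and 1971 in ED. Its value in WT mouse 2 was 1.49 times the mean of the other 5, beside an endothelial sum of 6362 against 3076 to 3908, and the part of endothelial cells was not tested. Slc2a3, the neuronal glucose carrier, and Slc16a1, a lactate carrier, did not overlap between genotypes. In both, ED was lower, a pattern that 3.42% of all genes showed. Slc2a3 stood at 294, 281 and 280.3 in WT and 252, 278 and 276 in ED (log2 fold change -0.08, SE 0.111). Slc16a1 stood at 545, 572 and 533 in WT and 503, 468 and 511 in ED (log2 fold change -0.16, SE 0.093). Both had an exact permutation p = 0.1 and a limma adjusted p = 1.00. The lactate exporter Slc16a3 overlapped between genotypes, with 1948, 2152 and 1698 in WT and 1869, 1835 and 1878 in ED.

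**Figure D5:**
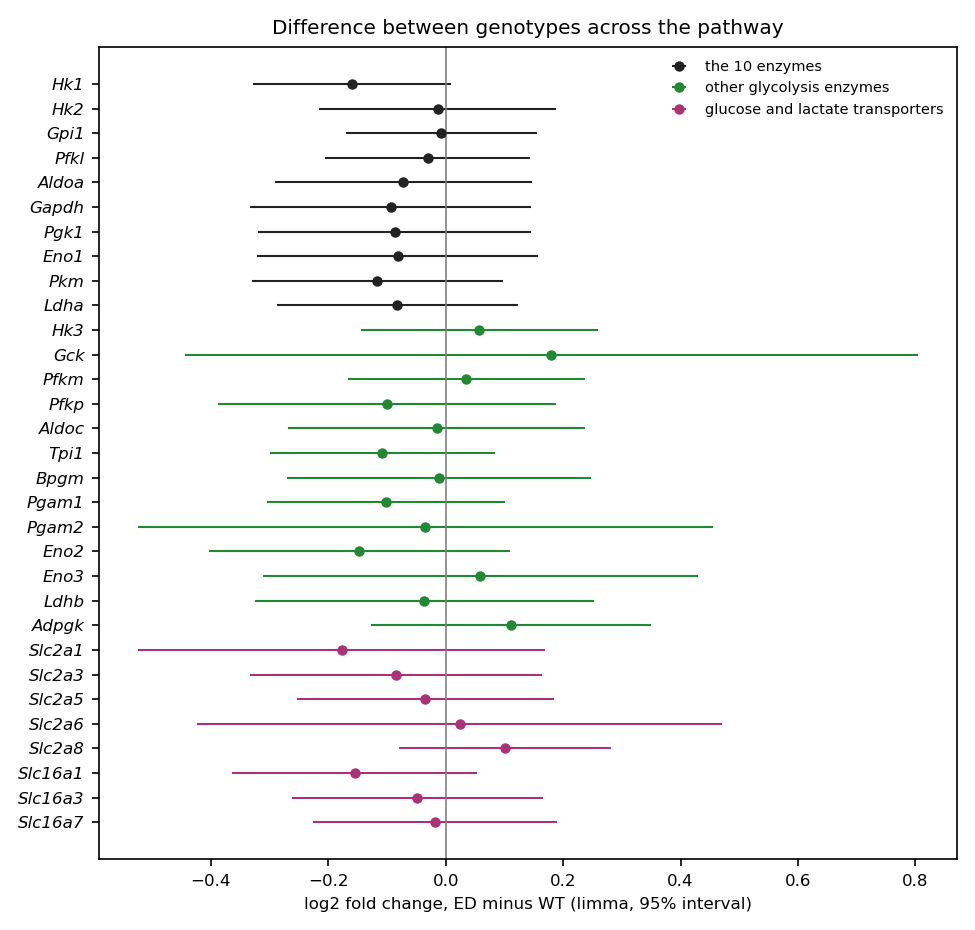
Log2 fold change, ED minus WT, with its 95% interval (x axis, limma on log2(value + 1), 3 mice per genotype) for the 10 enzymes (black), the other glycolysis enzymes (green) and the glucose and lactate transporters (purple). The 10 enzymes lie between -0.16 and -0.01, and every interval drawn includes 0.

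All 16 regulators of glycolytic flux were measured, 7 with an estimate below 0 and 9 above (median 0.01), and 0 passed. Pdha1, a subunit of pyruvate dehydrogenase, had no overlap, with 1533, 1668 and 1502 in WT and 1494, 1482 and 1375 in ED (log2 fold change -0.11, SE 0.081, exact permutation p = 0.1). Pfkfb1, which sets the level of an activator of phosphofructokinase, had no overlap in the other direction, at 24.7, 29.4 and 29.6 in WT and 29.99, 34.1 and 44.7 in ED (log2 fold change 0.35, SE 0.257, exact permutation p = 0.1). Of all genes, 3.42% had no overlap with ED lower and 2.32% with ED higher. The third gene by p, the pyruvate dehydrogenase kinase Pdk2, averaged 624 ± 42.0 (SD, n = 3) in WT mice and 579 ± 21.4 in ED mice. Of the side branches (pentose phosphate, glycogen, glycerol phosphate, hexosamine and serine routes), 19 of 21 genes were measured, 10 below 0 and 9 above with a median of -0.01, and 0 passed. The 3 smallest p belonged to Pygb, brain glycogen phosphorylase (log2 fold change -0.11), Gfpt1, the first step of hexosamine synthesis (-0.09), and Rpia of the pentose phosphate pathway (-0.08), all with overlap. WT mouse 2 was the highest library for 10 of these 19 genes.

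HIF and its targets outside glycolysis were measured for 22 of 23 genes, 13 below 0 and 9 above with a median of -0.03, and 0 passed. Of the 78 genes measured in the 5 pathway lists, 1 had an unadjusted limma p under 0.05, where 1.82% of all genes did (1.22% with ED lower). It was Egln3, a prolyl hydroxylase that marks HIF for degradation and is itself induced by HIF. Egln3 stood at 86.1, 82.2 and 63.5 in WT and 30.9, 49.1 and 41.0 in ED, so every ED library was below every WT library. The log2 fold change was -0.93 (SE 0.240, 95% interval -1.47 to -0.39), and it did not pass (limma unadjusted p = 0.0033, adjusted p = 1.00, exact permutation p = 0.1). Epas1, which encodes HIF-2 alpha and is high in endothelium, stood at 923, 2075 and 947 in WT and 953, 725 and 741 in ED. Its high value lay in WT mouse 2, the library with the highest endothelial sum, and the part of endothelial cells was not tested. Vegfa, a growth factor for blood vessels and a HIF target, pointed the other way at 295, 251 and 322 in WT and 379, 334 and 306 in ED (log2 fold change 0.23, SE 0.135, exact permutation p = 0.2). Hif1a itself stood at 3569, 3441 and 3179 in WT and 3198, 3324 and 3194 in ED (log2 fold change -0.07), with overlap. Over the 5 lists, 44 of 78 genes had an estimate below 0 and 34 above, and 4 did not overlap with ED lower and 1 with ED higher, beside 3.42% and 2.32% of all genes.

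With 3 mice per genotype, the 95% intervals of the 10 enzymes rested on standard errors of 0.072 to 0.107 on the log2 scale. Over the 10 enzymes, the lower bounds reached from -20.6% to -11.1% and the upper bounds from 0.674% to 13.9%.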

How the data were processed

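Microglia isolated with CD11b beads from 3 LACTB WT and 3 LACTB ED mice were sequenced as polyadenylated RNA. The submitters' processing notes list STAR 2.5.2b, Trimmomatic 0.36, Subread 1.5.2 with featureCounts, DESeq2 (version not given) and the GRCm38 build, whereas the study's methods name a human build for its RNA-seq. The signal values deposited by the authors are read counts divided by a size factor per library. The deposited log2 fold change and p-value columns (raw and adjusted) hold the authors' comparison and were not used. The lowest mean of a listed gene was 9.87, so lower genes were not analysed here.

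Genotype came from the sample titles. Values were analysed as log2(value + 1) with limma 3.58.1 in R 4.3.3 (genotype only, mean-variance trend, robust estimation off, Benjamini-Hochberg over all 15954 genes at 0.05). Fold changes refer to log2(value + 1), which shrinks those of genes with low counts. Single genes and 9 within-library ratios (8 of isozymes, and Ldha to Pkm) were also tested by exact two-sided permutation over mice. Coordinates and exon lengths came from GENCODE M21, and promoter windows from RefSeq. The alternatives were a pseudocount of 10, a mean of at least 50, rescaling by trimmed means or upper quartiles, no trend, library quality weights, mouse number as a block, and leaving out each library.

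The enzymes and lists were chosen with earlier results of these data known. The text names the 10 enzymes, their isozymes, the transporters, the 3 genes with the smallest p of each other list, and selected markers, and not every gene this rule takes is reported (1 of 10 microglia markers is not reported here). Hif1a, Lactb and Eno1b were named outside the rule. Each mouse was taken as a replicate.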

Additional observations from a re-analysis of the deposited data

How the results depend on the processing

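None of the 10 enzymes passed the threshold under any alternative run (pseudocount, filter, both rescalings, no trend, library quality weights, block and leave-outs), and the smallest adjusted p among them was 0.431, for Hk1 with library quality weights. Those weights passed 4 genes in the whole table, against 0 otherwise (Cst7, Spp1, Gpnmb and Fn1, all lower in ED and named after their values were seen), and raised the genes with an unadjusted p under 0.05 from 290 to 1761. That number was 912 without WT mouse 3 and 498 without the trend, both over all 15954 genes. It was 180 among the 12377 genes with a mean of at least 50. The weights also turned Aldoa to 0.0017 and Gpi1 to 0.0077. That fit leaned most on WT mouse 1 and ED mouse 2, whose weights were 2.80 and 3.23. Over the fits that each left out 1 library, the log2 fold change lay between -0.12 and 0.018 for Aldoa, -0.15 and 0.030 for Eno1, -0.020 and 0.019 for Gpi1, -0.081 and 0.032 for Hk2 and -0.077 and 0.0019 for Pfkl, and the other 5 enzymes stayed below 0. The log2 difference of the ratio lay between -0.10 and 0.20 for Aldoc to Aldoa, -0.19 and 0.054 for Eno2 to Eno1, -0.091 and 0.43 for Eno3 to Eno1, -0.016 and 0.13 for Ldhb to Ldha and -0.021 and 0.13 for Pfkm to Pfkl. The causes were not tested. In all, 16 of the re-computed values changed sign, and 198 kept their direction or, for counts of genes past the threshold, their value. The other 1 was the count of genes that passed with library quality weights. Ratios with a library left out were compared by direction only. An exact p of a ratio cannot fall under 0.1, so the ratios could not have passed the threshold.

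With mouse number as a replicate block, 0 genes passed, 403 had an unadjusted p under 0.05 and the Hk1 estimate was -0.16. Deviations of same-numbered mice correlated at -0.25, 0.05 and 0.35 over 12377 genes, so the numbers were not taken as pairs, and WT mouse 2 correlated best with ED mouse 1 (0.40). The planned count-model refits (edgeR, DESeq2) were not run, because the reads behind the ED values could not be recovered with certainty. The share of depth in the width of the intervals was not tested, and no gene under a mean of 9.87 was assessed.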
